A study of Danio rerio with 8 samples.

Results

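The MAP kinase cascade genes were followed in the heart ventricle of adult zebrafish whose fathers had or had not suffered a heart injury. Members were all genes whose zebrafish symbol begins with map4k, map3k, map2k or mapk followed by a digit, and 55 of the 32520 genes in the deposited table met this rule. They fall into 6 MAP4K, 20 MAP3K, 8 MAP2K and 16 MAPK genes, with 5 more that carry the name but encode no kinase of a tier (map3k7cl and the scaffolds mapk8ip1a, mapk8ip1b, mapk8ip2 and mapk8ip3). The family was selected on a readout of these data: low values of mapk4 in the offspring of injured fathers drew attention to it. The values of mapk4 are therefore a description with no test, and counts over the family are given as description beside the same counts over all genes.

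Pi-Fu libraries held ventricles of adult F1 offspring of fathers crossed 7 days after a cryoinjury, which is a freeze wound of the heart, and Pu-Fu libraries held ventricles of adult F1 offspring of uninjured fathers. Mothers were uninjured in both groups, and the offspring themselves were not injured. Each group had 4 libraries, numbered 1, 2, 4 and 7 in Pi-Fu and 1, 3, 4 and 5 in Pu-Fu, and each library pooled the ventricles of 4 siblings after removal of the atrium and the bulbus arteriosus and a cut to let red blood cells out. Whether pools within a group came from separate fathers is not given in the labels, nor are strain, sex and exact age, so p-values measure only the spread between these pools.

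MAP kinase cascades relay signals from receptors, stress and cytokines through kinases that phosphorylate each other in order. A MAP4K can activate a MAP3K, a MAP3K activates a MAP2K, and a MAP2K activates a MAPK, which then phosphorylates other kinases and transcription factors. The classical branches end in ERK, JNK, p38 and ERK5 kinases; in mammalian heart muscle they are known for their parts in growth, stress and injury responses, and signalling itself runs through phosphorylation, which RNA levels do not measure.

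The libraries held between 8441014 and 16290169 counts, and 18398 to 19179 genes had at least 1 count. On the first principal component, with 34.3% of the variance over the 13604 genes tested, the libraries at the ends were Pi-Fu 4 and Pu-Fu 4. Haemoglobin genes took 0.155% to 0.360% of counts in Pi-Fu libraries, highest in Pi-Fu 4, and 0.0900% to 0.171% in Pu-Fu libraries. Summed cardiomyocyte markers were at 48952 to 63346 counts per 1e6 counts (CPM) in Pi-Fu and 53561 to 59621 CPM in Pu-Fu libraries, as the tissue label has it. Summed erythrocyte markers were at 596 to 1848 CPM in Pi-Fu and 420 to 752 CPM in Pu-Fu libraries; 6 of the 6 that were tested had positive log2 folds, 2 of them at an unadjusted edgeR p under 0.05, and 1 listed gene was at 0 everywhere. Summed leukocyte markers were at 23.0 to 47.1 CPM in Pi-Fu and 25.5 to 34.3 CPM in Pu-Fu libraries, and lymphocyte markers were at 1.43 to 1.75 CPM in Pi-Fu and 0.577 to 2.24 CPM in Pu-Fu libraries. The ranges of the 2 groups overlapped for each of the marker lists.

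Of the 55 members, 53 had at least 1 count and 41 had enough counts to be tested. All 6 MAP4K and all 8 MAP2K genes were tested, with 13 of 20 MAP3K, 12 of 16 MAPK and 2 of 5 non-kinase members. The neuronal kinase map3k12 and map3k9, a mixed-lineage kinase, had no count in any library, and a count of 0 over all 8 libraries allows up to 0.0288 CPM, from counting error only. The other 12 untested members had between 4 and 82 counts over all libraries; among them were map3k2 with 82, mapk12a (a p38 kinase) with 60, map3k8 (Tpl2, an activator of ERK in immune cells) with 28, mapk12b with 28 and mapk10 (JNK3, known from neurons) with 16. Among the tested members, map4k3b, map3k11 and map3k20a passed the filter with some libraries of a group below its cutoff.

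Levels between genes were compared as reads per kilobase of exon over the library's sum of such values, times 1e6, called level per length here. The median level per length of the 41 tested members in Pu-Fu libraries was 4.71, beside 4.53 for all genes tested. In Pi-Fu libraries map2k1 (MEK1, which activates ERK) led with a level per length of 37.4 ± 7.29 (SD, n = 4), and in Pu-Fu libraries it was second with 29.9 ± 7.67. The MAP3K map3k20b, a relative of the mammalian kinase ZAK that senses stalled ribosomes, was second in Pi-Fu libraries with 35.7 ± 6.88 and led in Pu-Fu libraries with 37.1 ± 3.47. The library ranges of these 2 members overlapped in both groups. Next came map3k7 (TAK1, which relays TGF-beta and cytokine signals) with a level per length of 17.6 ± 4.50 in Pi-Fu and 18.8 ± 2.24 in Pu-Fu libraries, and mapk3 (ERK1) with 16.2 ± 4.92 in Pi-Fu and 18.7 ± 2.79 in Pu-Fu libraries. At the low end map3k20a had a level per length of 0.320 ± 0.230 in Pi-Fu and 0.362 ± 0.261 in Pu-Fu libraries.

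**Figure D1:**
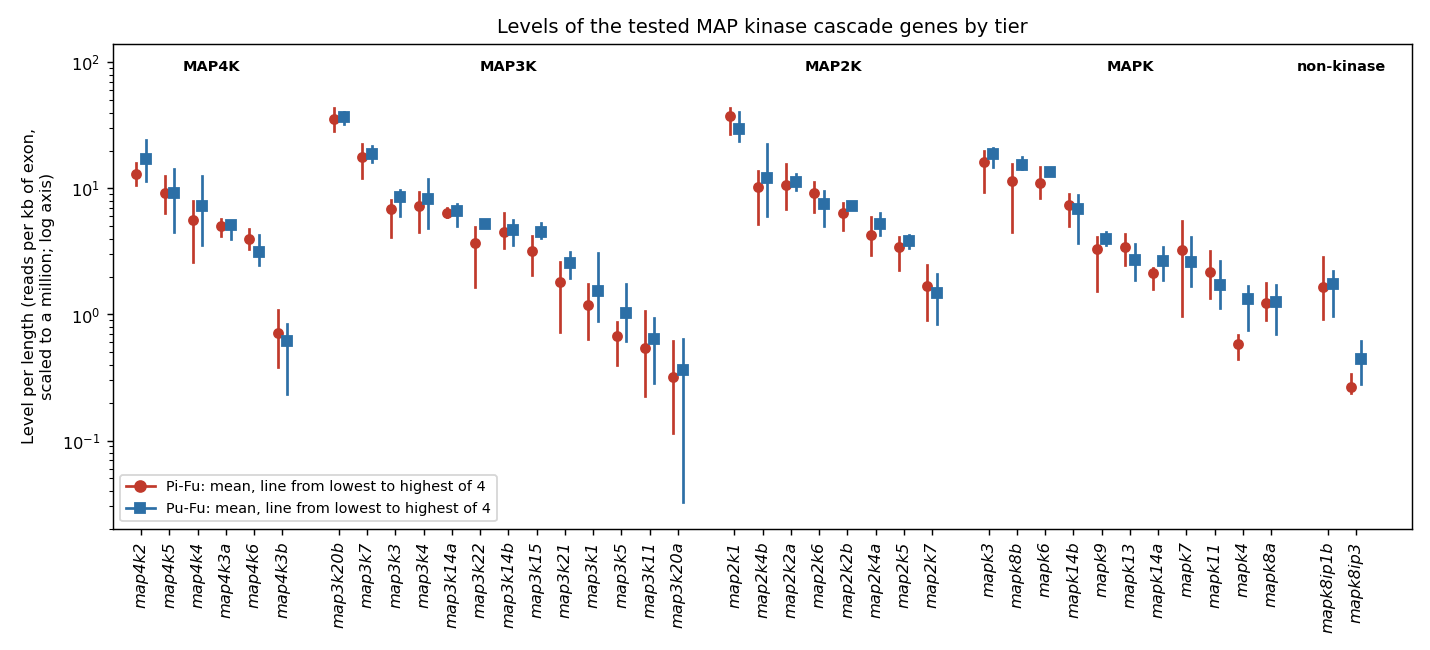
Level per length (reads per kilobase of exon over the library's sum, times 1e6, log axis) of 40 of the 41 tested members, ordered within each tier by their Pu-Fu mean; circles (Pi-Fu) and squares (Pu-Fu) are means of 4 libraries and lines run from the lowest to the highest library. Each tier spans a wide range of levels, with map3k20b and map2k1 at the top at 35.7 and 37.4 in Pi-Fu and 37.1 and 29.9 in Pu-Fu libraries.

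Zebrafish keep duplicate copies of many of these kinases, and close relatives and copies stood at unequal levels. Of the summed level per length of the p38-alpha pair, mapk14b held 77.6% ± 1.59 (SD, n = 4) in Pi-Fu and 71.3% ± 3.30 in Pu-Fu libraries. The Pi-Fu libraries ranged from 76.0% to 79.3% and the Pu-Fu libraries from 66.5% to 73.5%, so the groups did not overlap for this share. In all, 10 pairs were compared, and for every other pair the share ranges of the groups overlapped. The shares were not tested, and nothing is read from the mapk14 pair alone. Of the JNK1 pair, mapk8b held 89.3% ± 4.15 in Pi-Fu and 92.5% ± 1.94 in Pu-Fu libraries. Of the ZAK-like pair, map3k20b held 99.1% ± 0.710 in Pi-Fu and 99.0% ± 0.768 in Pu-Fu libraries. The copies of NIK, the kinase of the non-canonical NF-kappaB pathway, were closest to each other, with map3k14a at 59.1% ± 7.22 in Pi-Fu and 58.4% ± 3.62 in Pu-Fu libraries. Exons of map3k14b overlap another annotated gene and reads there were not counted, so its level per length may be too low. By CPM, without regard to length, map3k14b was higher, at 15.7 against 11.4 in Pi-Fu and 16.9 against 12.1 in Pu-Fu libraries. The copy with the higher mean per length, given here, was also the higher copy in 8 of 8 libraries for mapk14b, mapk8b and map3k20b and in 7 for map3k14a.

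No member passed the test of Pi-Fu against Pu-Fu. edgeR's quasi-likelihood test with Benjamini-Hochberg adjustment over 13604 genes called 0 of 41 members, as it called 0% of all genes tested; limma voom also called 0 members. DESeq2 called 1, beside 0.463% of all genes, but that member was mapk4, on whose values the family was selected, so the call is no test of it. At an unadjusted edgeR p under 0.05 there were 3 members, mapk4 included, all lower in Pi-Fu libraries, beside 7.14% of all genes in either direction and 3.47% in that direction. Of the 41 members, 3 had every Pi-Fu library below every Pu-Fu library, beside 1.58% of all genes, and 0 had every Pi-Fu library above, beside 2.6%. Since mapk4 is among the 3 in both counts and the family was selected on it, nothing is read from them.

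Over the 41 members the median log2 fold of Pi-Fu over Pu-Fu was -0.25, and 32 were negative, 78.0%; over all genes tested the median was -0.01 and 51.4% were negative. By tier, log2 folds were negative for 13 of 13 MAP3K genes with a median of -0.38, for 8 of 12 MAPK genes with a median of -0.29, for 5 of 8 MAP2K genes with a median of -0.17, and for 4 of 6 MAP4K genes with a median of -0.05. Summed per length, the MAP3K tier was at 90.3 ± 18.3 (SD, n = 4) in Pi-Fu and 101 ± 3.11 in Pu-Fu libraries. The MAPK tier was at 64.5 ± 16.8 in Pi-Fu and 73.1 ± 7.59 in Pu-Fu libraries, the MAP2K tier at 83.2 ± 10.3 in Pi-Fu and 78.5 ± 3.30 in Pu-Fu libraries, and the MAP4K tier at 37.5 ± 4.51 in Pi-Fu and 42.5 ± 12.0 in Pu-Fu libraries. Each of these differences between group means was smaller than the larger of the 2 SDs. The MAP4K median was 0.03 with library sizes alone, where the median of all genes tested was 0.07, and it was 0.12 without Pu-Fu 4, so no direction is given for that tier. Without Pu-Fu 4 the MAP2K median was 0.0046. In bulk ventricle, fewer cells of a type and less RNA per cell cannot be told apart.

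**Figure D2:**
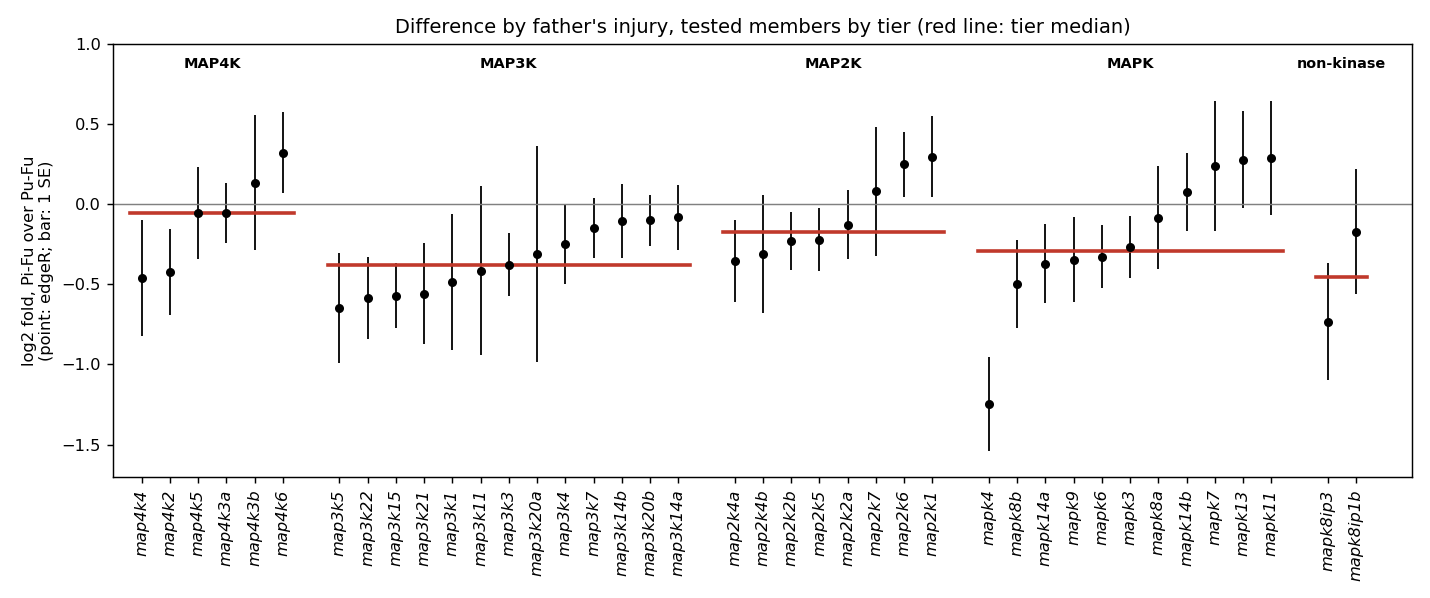
Log2 fold of Pi-Fu over Pu-Fu (edgeR) for 40 of the 41 tested members, grouped by tier and ordered within it; points are the fitted values, bars 1 standard error and red lines the medians of all tested members of a tier. The 13 MAP3K points all lie below 0 with a median of -0.38, MAP4K points lie on both sides with a median of -0.05 (0.03 with library sizes alone), and mapk4 lies lowest at -1.24.

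Many of the members' extreme values stood in Pu-Fu 4 and Pi-Fu 4. Pu-Fu 4 was the highest of the 8 libraries for 19 of the 41 members, 46.3%, against 24.0% of all genes, and Pi-Fu 4 was the lowest for 19 members, 46.3%, against 21.0% of all genes. For 11 members, 26.8%, both held at once, against 11.8% of all genes; they were map4k4, map3k1, map3k3, map3k5, map3k21, map2k4b, map2k5, mapk3, mapk4, mapk8b and mapk14a. In Pi-Fu 4 the summed level per length was 64.7 for MAP3K, 40.5 for MAPK, 69.8 for MAP2K and 31.8 for MAP4K genes. Each of these sums was the lowest of the 8 libraries in its tier. Without both libraries numbered 4, an alternative chosen after seeing the data, the median log2 fold was -0.10 over the members and -0.16 over the MAP3K genes, 10 of which were then negative, -0.12 over the MAPK genes and -0.017 over the MAP2K genes. With the haemoglobin share of counts in the model, which is highest in Pi-Fu 4, the medians were -0.036 over the members and -0.085 over the MAP3K genes, again with 10 negative. This share was 0.155% to 0.360% in Pi-Fu and 0.0900% to 0.171% in Pu-Fu libraries, so it goes partly with the group. Holding it can take part of the group difference away. The part of red blood cells, RNA quality or any other property of these libraries in the result was not tested.

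**Figure D3:**
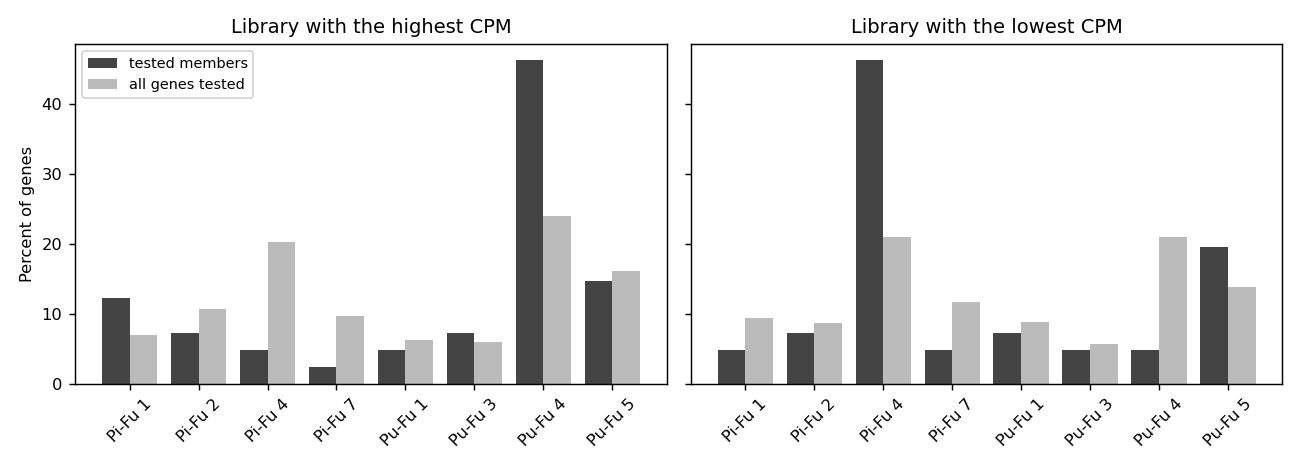
Percent of genes for which each library had the highest CPM (left panel) or the lowest CPM (right panel), for the 41 tested members (dark bars) and all 13604 genes tested (light bars). Pu-Fu 4 was highest and Pi-Fu 4 lowest for 46.3% of the members each, against 24.0% and 21.0% of all genes.

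Among the MAP4K genes, which sit at the top of the JNK and p38 branches, map4k2 had the highest level per length. It was at 21.4, 19.7, 33.6 and 30.2 CPM in Pi-Fu libraries, against 22.0, 29.5, 49.8 and 39.4 CPM in Pu-Fu libraries, and the groups overlapped. Its log2 fold was -0.42 (SE 0.27; adjusted p = 0.75 by edgeR), and without Pu-Fu 4 it was -0.21. For map4k4, the kinase HGK, the values were 18.4, 14.7, 7.81 and 13 CPM in Pi-Fu libraries, against 16.9, 14.8, 32.5 and 9.68 CPM in Pu-Fu libraries. Here Pi-Fu 4 was lowest and Pu-Fu 4 highest of all, with the other 6 libraries between 9.68 and 18.4 CPM; the log2 fold was -0.46 (SE 0.36), and without Pu-Fu 4 it was -0.038. The log2 fold of map4k5 was -0.05 (SE 0.29), with 22.4 ± 4.53 CPM in Pi-Fu and 23.2 ± 9.93 CPM in Pu-Fu libraries (SD, n = 4 each). That of map4k3a was -0.05 (SE 0.19), with 15.5 ± 0.706 CPM in Pi-Fu and 16.0 ± 2.79 CPM in Pu-Fu libraries. The highest log2 fold of all members tested, 0.32 (SE 0.25, adjusted p = 0.79 by edgeR), was that of map4k6, which is named here for that reason. It was at 8.48 ± 2.02 CPM in Pi-Fu and 6.78 ± 1.63 CPM in Pu-Fu libraries, and the groups overlapped.

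In the MAP3K tier, map3k15 and map3k22 had an unadjusted p under 0.05; they lie apart on chromosome 24. The kinase map3k15 (ASK3, known in mammals as a sensor of osmotic stress; ENSDARG00000013310, GRCz11 chromosome 24, 25913162 to 25989500, plus strand) was at 17, 18.7, 12.0 and 12.4 CPM in Pi-Fu libraries, against 18.6, 25.5, 22.3 and 22.6 CPM in Pu-Fu libraries. The groups overlapped only by Pi-Fu 2, which stood level with Pu-Fu 1. Its log2 fold was -0.57 (SE 0.20), with an unadjusted p of 0.0166 and an adjusted p of 0.60 by edgeR. With library sizes alone the log2 fold was -0.48 (unadjusted p = 0.0549 by edgeR). A model that held the haemoglobin share gave -0.47 (unadjusted p = 0.0977 by edgeR). The unadjusted edgeR p was also above 0.05 without Pu-Fu 3, at 0.0580, and without both libraries numbered 4, at 0.0543.

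The values of map3k22 (ENSDARG00000074219, GRCz11 chromosome 24, 20214418 to 20321012, minus strand) were 8.25, 7.14, 3.57 and 6.42 CPM in Pi-Fu libraries, against 9.56, 9.04, 9.37 and 10.1 CPM in Pu-Fu libraries. Every Pi-Fu library was below every Pu-Fu library, with Pi-Fu 4 farthest away, and the Pu-Fu libraries were close together. Its log2 fold was -0.59 (SE 0.26; unadjusted p = 0.0404, adjusted p = 0.68 by edgeR). Without Pi-Fu 4 it was -0.39, and a model that held the haemoglobin share gave -0.18 (unadjusted p = 0.51 by edgeR). When single libraries were left out, the unadjusted edgeR p was under 0.05 in 2 of 8 fits. It was 0.113 with library sizes alone and 0.0952 without both libraries numbered 4.

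The MAP3K genes of highest level per length, map3k20b and map3k7, had small differences. For map3k20b the values were 87.9, 121, 104 and 111.5 CPM in Pi-Fu libraries, against 117, 109, 101 and 128 CPM in Pu-Fu libraries, with a log2 fold of -0.10 (SE 0.16). The groups overlapped over most of their ranges. TAK1 (map3k7) was at 66.0 ± 12.4 CPM in Pi-Fu and 73.2 ± 11.7 CPM in Pu-Fu libraries (SD, n = 4 each), a log2 fold of -0.15 (SE 0.19). The kinase map3k3 (MEKK3, which acts on the ERK5 branch and is needed in mice for heart and vessel development) was at 24.1, 23.3, 16.1 and 22.7 CPM in Pi-Fu libraries, against 30.1, 28.1, 32.4 and 21.2 CPM in Pu-Fu libraries. Only Pu-Fu 5 lay within the Pi-Fu range, and the log2 fold was -0.38 (SE 0.20; adjusted p = 0.72 by edgeR).

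MEKK4 (map3k4), which the GADD45 proteins bind and activate in mammals, was at 31.6, 25.4, 19.7 and 25.4 CPM in Pi-Fu libraries, against 26.3, 30.8, 44.7 and 19.5 CPM in Pu-Fu libraries. The groups overlapped, with a log2 fold of -0.25 (SE 0.25) that was -0.0022 without Pu-Fu 4 and 0.10 without both libraries numbered 4. Both NIK copies were nearly level between groups, with log2 folds of -0.08 (SE 0.20) for map3k14a and -0.11 (SE 0.23) for map3k14b. The lowest log2 fold of the tier, -0.65 (SE 0.34, adjusted p = 0.72 by edgeR), was that of map3k5 (ASK1, an activator of JNK and p38 under oxidative stress). It was at 2.82 ± 0.647 CPM in Pi-Fu and 4.43 ± 2.18 CPM in Pu-Fu libraries (SD, n = 4 each). Pu-Fu 4 was at 7.64 CPM and the other Pu-Fu libraries at 2.89 to 3.84 CPM, against 2.05 to 3.56 CPM in Pi-Fu libraries. The gene map3k5 is named here because of its log2 fold.

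Among the MAP2K genes, map2k1 was at 33.0, 46.8, 64.6 and 55.5 CPM in Pi-Fu libraries, against 32.1, 39.4, 32.3 and 59.0 CPM in Pu-Fu libraries. Pu-Fu 5 stood with the high Pi-Fu libraries and Pi-Fu 1 with the low Pu-Fu libraries. Its log2 fold was 0.30 (SE 0.25; adjusted p = 0.81 by edgeR), and without Pi-Fu 4 it was 0.14. The other MEK genes had negative log2 folds: map2k2a, at -0.13 (SE 0.22), and map2k2b, at -0.23 (SE 0.18). The values of map2k2b were 9.69, 11.6, 9.33 and 11 CPM in Pi-Fu libraries, against 11.7, 12.6, 12.0 and 12.6 CPM in Pu-Fu libraries. Every Pi-Fu library was below every Pu-Fu library, by a narrow gap, and the adjusted edgeR p was 0.79.

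Of the MAP2K genes for JNK, map2k4a had a log2 fold of -0.35 (SE 0.26), map2k4b of -0.31 (SE 0.37) and map2k7 of 0.08 (SE 0.40). For map2k4b the values were 12.7, 11.1, 6.30 and 9.34 CPM in Pi-Fu libraries, against 9.93, 9.20, 23.1 and 6.64 CPM in Pu-Fu libraries. Without Pu-Fu 4 the remaining Pu-Fu values lie inside the Pi-Fu range, and the log2 fold was 0.19. The p38 activator map2k6 was at 30.9, 29.2, 23.5 and 23.1 CPM in Pi-Fu libraries, against 24.0, 27.9, 21.5 and 16.2 CPM in Pu-Fu libraries, with a log2 fold of 0.25 (SE 0.20). The ERK5 activator map2k5 had a log2 fold of -0.22 (SE 0.20), with 9.57 ± 1.46 CPM in Pi-Fu and 11.2 ± 0.858 CPM in Pu-Fu libraries (SD, n = 4 each). With the haemoglobin share held its log2 fold was -0.026. No member of this tier had an unadjusted p under 0.05.

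The lowest log2 fold of the whole family was that of mapk4 (ERK4; ENSDARG00000110581, GRCz11 chromosome 8, 29742237 to 29769157, plus strand), the gene on which the family was selected. ERK4 and its close relative ERK3, encoded by mapk6, are atypical MAPKs that lack the usual activation motif and are known for binding the kinase MK5. The values of mapk4 were 2.51, 2.97, 2.50 and 2.86 CPM in Pi-Fu libraries, against 3.43, 7.68, 8.22 and 6.40 CPM in Pu-Fu libraries. The 4 Pi-Fu libraries lay close together, and Pu-Fu 1 stood nearer to them than to the other Pu-Fu libraries. Its log2 fold was -1.24 (SE 0.29) and ranged from -1.46 to -1.07 over the alternatives. Per length it was a minor gene of the tier, with a level of 0.583 ± 0.106 in Pi-Fu and 1.33 ± 0.434 in Pu-Fu libraries (SD, n = 4 each).

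The values of mapk6 were 41.7, 32.3, 50.4 and 58.9 CPM in Pi-Fu libraries, against 54.7, 54.2, 60.7 and 60.5 CPM in Pu-Fu libraries. Pi-Fu 7 lay within the Pu-Fu range and the other Pi-Fu libraries below it, and Pi-Fu 4 was not the lowest. Its log2 fold was -0.33 (SE 0.19; adjusted p = 0.74 by edgeR). Of the summed level per length of these ERK3 and ERK4 genes, mapk6 held 94.8% ± 1.58 in Pi-Fu and 91.1% ± 2.67 in Pu-Fu libraries.

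**Figure D4:**
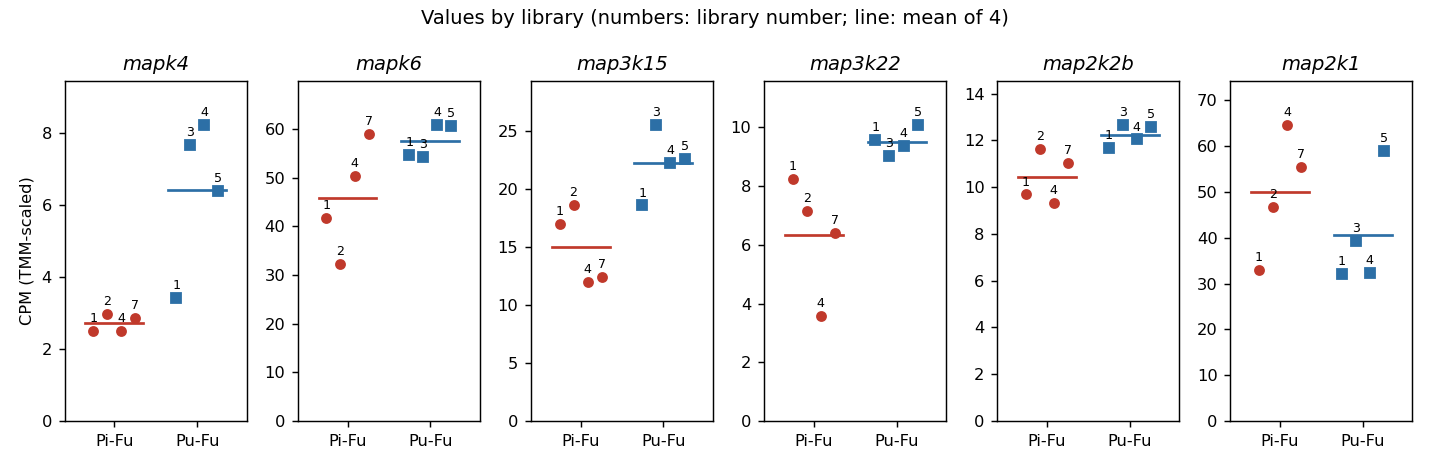
CPM in each library (numbers are library numbers, lines are means of 4) for mapk4, mapk6, map3k15, map3k22, map2k2b and map2k1, with Pi-Fu on the left and Pu-Fu on the right of each panel. The groups do not overlap for mapk4, map3k22 and map2k2b, and do overlap for mapk6, map3k15 and map2k1.

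The classical ERK gene mapk3 overlapped between groups. Its values were 25.9, 25.3, 15.9 and 21.3 CPM in Pi-Fu libraries, against 28.2, 26.2, 29.3 and 22.6 CPM in Pu-Fu libraries, with a log2 fold of -0.27 (SE 0.20; adjusted p = 0.78 by edgeR). Pi-Fu 4 was lowest and Pu-Fu 4 highest. Without Pi-Fu 4 the log2 fold was -0.14, and with the haemoglobin share held it was -0.025. The ERK5 gene mapk7 was at 13.5, 6.92, 3.11 and 9.63 CPM in Pi-Fu libraries, against 5.91, 6.0, 11.2 and 4.92 CPM in Pu-Fu libraries. Its spread within Pi-Fu was wide, and the log2 fold was 0.24 (SE 0.41), or 0.87 with the haemoglobin share held.

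Of the JNK genes, mapk8b was at 20.5, 14.8, 7.66 and 19.7 CPM in Pi-Fu libraries, against 20.0, 20.1, 26.0 and 22.5 CPM in Pu-Fu libraries. Pi-Fu 1 and Pi-Fu 7 stood beside the lower Pu-Fu libraries, and Pi-Fu 4 was far below. The log2 fold was -0.50 (SE 0.28; adjusted p = 0.73 by edgeR). Without Pi-Fu 4 it was -0.27, and a model with the haemoglobin share gave 0.0059. The log2 fold of mapk9 (JNK2) was -0.35 (SE 0.27), or -0.16 without Pi-Fu 4 and -0.017 with the haemoglobin share held. That of mapk8a was -0.08 (SE 0.32).

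The p38 genes had log2 folds of both signs. For mapk14a the values were 4.49, 4.17, 3.94 and 4.61 CPM in Pi-Fu libraries, against 6.06, 4.64, 7.35 and 4.22 CPM in Pu-Fu libraries, with a log2 fold of -0.37 (SE 0.25). Its more abundant copy mapk14b was at 25.2 ± 3.59 CPM in Pi-Fu and 23.9 ± 7.77 CPM in Pu-Fu libraries (SD, n = 4 each), with a log2 fold of 0.08 (SE 0.24). The log2 fold was 0.29 (SE 0.36) for mapk11 and 0.28 (SE 0.30) for mapk13. The genes mapk11 and mapk12b neighbour each other on chromosome 4, 1252 bases apart, and each shares exon stretches with another annotated gene, so reads there were left out of their counts. In all, 10 of the 55 members, among them map2k1, map2k6, map3k4, map3k14b, mapk6, mapk7 and mapk9, have exons that overlap another annotated gene, and mapk4 has none. For these 10 the level per length may be too low.

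Of the non-kinase members, mapk8ip3 (a JNK scaffold that binds motor proteins) was at 1.08, 0.769, 1.06 and 0.817 CPM in Pi-Fu libraries, against 2.04, 1.92, 1.01 and 1.25 CPM in Pu-Fu libraries. Only Pu-Fu 4 reached into the Pi-Fu range. The log2 fold was -0.73 (SE 0.36; adjusted p = 0.71 by edgeR). The other tested scaffold, mapk8ip1b, had a log2 fold of -0.17 (SE 0.39).

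Genes around the cascade were described from 7 lists, and edgeR called 0 of their members. The share of each list at an unadjusted edgeR p under 0.05 is to be read beside the 7.14% of all genes, and with 1 to 3 genes per list nothing is read from it. Of 26 tested genes for RAS and RAF input to the ERK branch, 21 had negative log2 folds, with a median of -0.12, and 2, 7.69%, were at an unadjusted p under 0.05. These were NF1 on chromosome 10, a gene for a RAS inhibitor, at -0.77 (SE 0.32; adjusted p = 0.67 by edgeR), and SOS2 on chromosome 13, a gene for a RAS activator, at -0.57 (SE 0.25; adjusted p = 0.68 by edgeR). NF1 on chromosome 10 was at 3.41 ± 1.23 CPM in Pi-Fu and 5.79 ± 1.57 CPM in Pu-Fu libraries (SD, n = 4 each). The more abundant NF1 gene, on chromosome 15, was at 18.6 ± 3.52 CPM in Pi-Fu and 19.1 ± 6.80 CPM in Pu-Fu libraries, a log2 fold of -0.04 (SE 0.25). SOS2 was at 7.09, 8.46, 5.16 and 8.23 CPM in Pi-Fu libraries, against 9.63, 8.96, 15.1 and 9.21 CPM in Pu-Fu libraries. The groups did not overlap, but the gap was narrow apart from Pu-Fu 4, and without that library its log2 fold was -0.36.

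Of 20 tested activators of the JNK and p38 branches, 8 had positive and 12 negative log2 folds, with a median of -0.03, and 2, 10.0%, were at an unadjusted p under 0.05, both of them among the 5 tested GADD45 genes. The most abundant GADD45 gene, GADD45B on chromosome 11, was at 253 ± 184 CPM in Pi-Fu and 220 ± 96.1 CPM in Pu-Fu libraries (SD, n = 4 each), a log2 fold of 0.20 (SE 0.67), and GADD45G on chromosome 8 had a log2 fold of 0.12 (SE 0.75). GADD45B on chromosome 2 was at 1.61, 3.95, 29.4 and 6.42 CPM in Pi-Fu libraries, against 2.12, 2.88, 1.30 and 1.95 CPM in Pu-Fu libraries. Pi-Fu 4 stood far above all others, and the log2 fold was 2.33 (SE 0.79) with all libraries, 0.97 without Pi-Fu 4 and 0.41 with the haemoglobin share held. GADD45A on chromosome 2 was at 5.29, 6.37, 6.14 and 3.74 CPM in Pi-Fu libraries, against 3.28, 3.6, 1.80 and 3.51 CPM in Pu-Fu libraries, a log2 fold of 0.81 (SE 0.29). Every Pi-Fu library was above every Pu-Fu library, and the adjusted p by edgeR was 0.60 for both genes of chromosome 2. GADD45A on chromosome 6 had a log2 fold of 1.22 (SE 0.57), which was 0.43 without Pi-Fu 4 and -0.066 with the haemoglobin share held.

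Of 10 tested MAPK phosphatases, which switch MAPKs off, 8 had negative log2 folds, with a median of -0.27. DUSP8 on chromosome 25 was the 1 gene, 10.0% of the list, at an unadjusted p under 0.05, at 12.6, 11.8, 12.8 and 33.7 CPM in Pi-Fu libraries, against 15.4, 29.1, 51.1 and 42.7 CPM in Pu-Fu libraries. Pi-Fu 7 lay among the Pu-Fu libraries, and the log2 fold was -0.96 (SE 0.42; adjusted p = 0.70 by edgeR). The log2 fold of DUSP4 was -1.21 with all libraries and -0.09 without Pu-Fu 4. Of 8 tested feedback inhibitors of the ERK branch, 5 had negative log2 folds, with a median of -0.07. SPRED1 on chromosome 17, a gene for a RAF inhibitor and the 1 member of the list, 12.5%, at an unadjusted p under 0.05, was at 1.1 ± 0.473 CPM in Pi-Fu and 2.22 ± 0.442 CPM in Pu-Fu libraries (SD, n = 4 each), a log2 fold of -1.03 (SE 0.37; adjusted p = 0.60 by edgeR).

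Of 11 tested kinases downstream of MAPKs, 8 had negative log2 folds, with a median of -0.18, and 2, 18.2%, were at an unadjusted p under 0.05. MKNK2 on chromosome 2, a gene for a kinase of the translation factor eIF4E, was at 11.4, 11.5, 11.4 and 11.6 CPM in Pi-Fu libraries, against 13.3, 65.5, 47.4 and 7.50 CPM in Pu-Fu libraries. The Pi-Fu libraries were nearly equal, while Pu-Fu 3 and Pu-Fu 4 stood far above the other Pu-Fu libraries. The log2 fold was -1.54 (SE 0.58, adjusted p = 0.63 by edgeR), and without Pu-Fu 3 it was -0.97. The more abundant MKNK2 gene, on chromosome 8, was at 184 ± 25.3 CPM in Pi-Fu and 201 ± 34.1 CPM in Pu-Fu libraries (SD, n = 4 each). Its log2 fold was -0.13 (SE 0.17). RPS6KA5 on chromosome 17 (MSK1, a kinase of histone H3 and CREB) was at 9.48 ± 2.94 CPM in Pi-Fu and 14.9 ± 3.32 CPM in Pu-Fu libraries (SD, n = 4 each), a log2 fold of -0.65 (SE 0.26; adjusted p = 0.64 by edgeR). Of 13 tested scaffolds, 10 had negative log2 folds, with a median of -0.20. This median was 0.084 without both libraries numbered 4, 0.046 without Pu-Fu 4 and 0.025 with the haemoglobin share held. No direction is therefore given for that list. Of its genes 1, 7.69%, was at an unadjusted p under 0.05: spag9a, a JNK scaffold gene on chromosome 3, at -0.65 (SE 0.28, adjusted p = 0.67 by edgeR). It was at 2.62 ± 0.664 CPM in Pi-Fu and 4.10 ± 0.757 CPM in Pu-Fu libraries. The more abundant SPAG9 gene, on chromosome 12, was at 38.3 ± 17.4 CPM in Pi-Fu and 41.0 ± 11.7 CPM in Pu-Fu libraries, a log2 fold of -0.10 (SE 0.32).

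Of 27 tested genes for transcription factors that MAPKs phosphorylate, 12 had positive and 15 negative log2 folds, with a median of -0.24. At an unadjusted p under 0.05 there were 3, 11.1%: JUNB and FOS higher and MEF2A lower in Pi-Fu. JUNB on chromosome 1 was at 4.67, 3.63, 14.3 and 6.42 CPM in Pi-Fu libraries, against 2.92, 2.56, 3.24 and 1.56 CPM in Pu-Fu libraries. Every Pi-Fu library was above every Pu-Fu library, with Pi-Fu 4 highest. The log2 fold was 1.5 (SE 0.42; unadjusted p = 0.00414, adjusted p = 0.51 by edgeR), and it was 0.94 without Pi-Fu 4 and 0.63 with the haemoglobin share held. JUNB on chromosome 3 was at 7.34 ± 3.66 CPM in Pi-Fu and 5.26 ± 1.90 CPM in Pu-Fu libraries (SD, n = 4 each). Its groups overlapped, with a log2 fold of 0.49 (SE 0.39). FOS on chromosome 20 was at 0.718, 2.31, 49.6 and 11.6 CPM in Pi-Fu libraries, against 1.09, 3.12, 1.08 and 0.547 CPM in Pu-Fu libraries. Pi-Fu 4 and Pi-Fu 7 stood above all others while Pi-Fu 1 and Pi-Fu 2 lay among the Pu-Fu libraries; the log2 fold was 3.47 (SE 1.22), and it was 1.78 without Pi-Fu 4 and 1.23 with the haemoglobin share held. The haemoglobin share goes partly with the group, so a fit that holds it does not tell the share from the group. In what follows JUNB is the gene of chromosome 1, NF1 that of chromosome 10 and MKNK2 that of chromosome 2. With that share held, GADD45B of chromosome 2, JUNB and FOS were no longer at an unadjusted edgeR p under 0.05. The same was true of GADD45A of chromosome 2, NF1, SOS2, DUSP8, SPRED1, RPS6KA5, spag9a and MEF2A. Of the list genes under 0.05 with no such share in the model, only MKNK2 stayed there (log2 fold -1.85, unadjusted p = 0.0326 by edgeR). When single libraries were left out, the unadjusted edgeR p of MKNK2 was under 0.05 in 2 of 8 fits. That of JUNB, SPRED1 and GADD45A of chromosome 2 was under 0.05 in all 8. Without both libraries numbered 4 it was 0.173 for MKNK2, 0.00928 for JUNB, 0.0789 for GADD45A of chromosome 2 and 0.0957 for SPRED1. With the share held, the log2 fold was -0.55 for SPRED1, -0.37 for NF1 and -0.33 for MEF2A. MEF2A on chromosome 18, a gene for a muscle transcription factor that p38 and ERK5 phosphorylate, was at 13 ± 5.67 CPM in Pi-Fu and 21.9 ± 8.10 CPM in Pu-Fu libraries (SD, n = 4 each), a log2 fold of -0.76 (SE 0.34; adjusted p = 0.70 by edgeR).

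**Figure D5:**
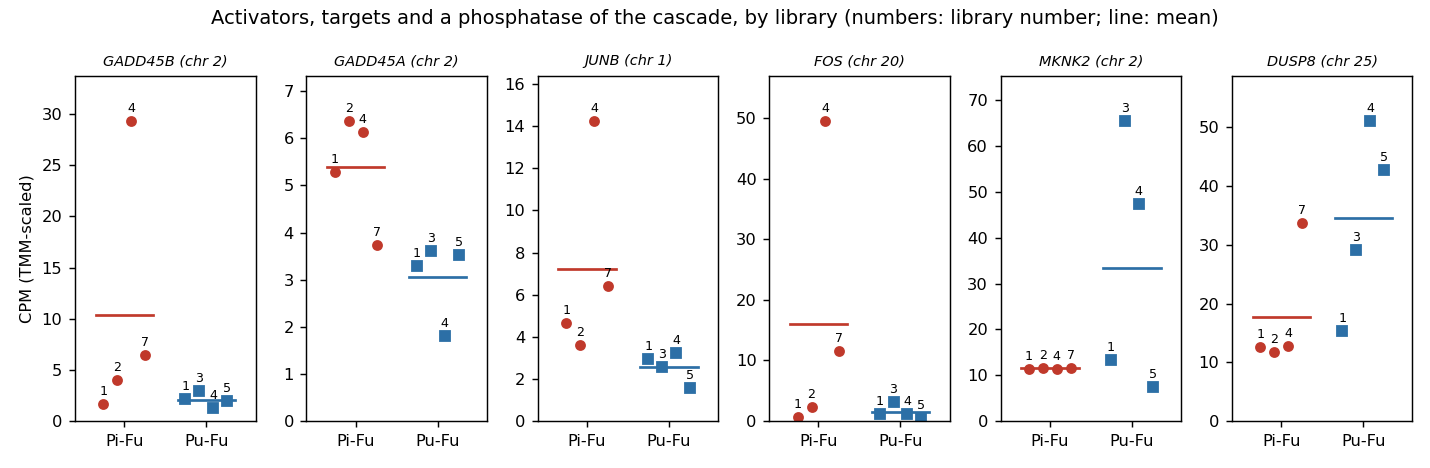
CPM in each library (numbers are library numbers, lines are means of 4) for genes around the cascade, with Pi-Fu on the left and Pu-Fu on the right of each panel. The genes are GADD45B, GADD45A and MKNK2 of chromosome 2, JUNB of chromosome 1, FOS of chromosome 20 and DUSP8 of chromosome 25. Where a symbol stands for several tested genes, the gene of smallest p was drawn. Pi-Fu 4 is far above the rest for GADD45B at 29.4 CPM and for FOS at 49.6 CPM, while the Pi-Fu libraries are nearly equal for MKNK2 at 11.4 to 11.6 CPM.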

How the data were processed

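RNA of ventricle pools was read as single reads of 60 bases on a HiSeq2500, from 1 ng of RNA amplified in 2 rounds, per the labels' protocols. The deposited values are raw counts of reads per gene: per the file headers, the authors ran featureCounts 2.0.3 with Ensembl GRCz11 release 111 and strand option 0, so reads in overlapping genes or mapping to several places were not counted. Per the submitters' processing notes, FastQC 0.11.9, MultiQC 1.12, STAR 2.7.10a, R 4.4.0 and DESeq2 1.44.0 were used. Without molecular identifiers, counts are not independent molecules, and floors cover counting error only.

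Pi-Fu was compared with Pu-Fu, 4 libraries each, by the quasi-likelihood test of edgeR 4.0.16 in R 4.3.3, with TMM factors and robust fitting, for the 13604 genes that filterByExpr kept at its minimum count of 10; p-values were adjusted by Benjamini-Hochberg and called at 0.05. The code was tested on simulated data. Standard errors (SE) were taken as the size of the log2 fold divided by the root of its F statistic. CPM is counts over the TMM-scaled total times 1e6. Level per length uses the length column of the table. Alternatives were other scalings and filters, DESeq2 1.42.0, limma 3.58.1 voom, haemoglobin share, replicate block and leaving out libraries. Replicates differed beyond sampling noise, with chi-square per degree of freedom from 20.2 upward.

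Symbols came from tables of gene names, with copy letters a or b from RefSeq where the chromosome matched. Symbols in capitals can stand for several zebrafish genes. Named were all tested MAPK, MAP2K and non-kinase members, the 6 MAP3K and 4 MAP4K genes of highest Pu-Fu level per length, MAP3K and MAP4K genes at an unadjusted p under 0.05, and up to 3 genes of smallest p per pathway list. Named after their values were seen were map3k5, map4k6, GADD45B of chromosome 11 and GADD45G. The same holds for MKNK2 of chromosome 8, NF1 of chromosome 15, SPAG9 of chromosome 12 and JUNB of chromosome 3. It also holds for the members set out for their library extremes, filter or overlap. The members, lists and rules were chosen with earlier results of these data known. Values of 1 tested member are not reported here, though counts and medians include it. No set test was run.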

Additional observations from a re-analysis of the deposited data

How the results depend on the processing

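Members called were 0 under every alternative except DESeq2, with 1, the gene the family was selected on, which is no test of it. At an unadjusted p under 0.05, lower in Pi-Fu, 3 members became 1 with the haemoglobin share in the model, 1 with library sizes alone and 1 to 4 when leaving out single libraries (1 without Pu-Fu 3); higher, 0 became 1 without both libraries numbered 4 and 0 to 1 when leaving out single libraries. Members with every Pi-Fu library below every Pu-Fu library, 3 in all, were 1 with library sizes alone, 5 without both libraries numbered 4 and 3 to 6 when leaving out single libraries. With fewer libraries the groups are less apt to overlap for any gene. The share of all genes was not taken under these alternatives for either kind of count, so nothing is read from them.

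The median log2 fold over the members, -0.25, was -0.036 with the haemoglobin share, -0.10 without both libraries numbered 4, and -0.30 to -0.15 when leaving out single libraries. For MAP3K genes, -0.38, these values were -0.085, -0.16 and -0.53 to -0.21. For MAPK genes, -0.29, it was -0.021 with the haemoglobin share, and for MAP2K genes, -0.17, it was 0.075. Without both libraries numbered 4 these were -0.12 and -0.017, and without Pu-Fu 4 the MAP2K median was 0.0046. For MAP4K genes, -0.05, it was 0.14 without both libraries numbered 4, 0.12 without Pu-Fu 4, -0.0061 with the haemoglobin share, and 0.03 with library sizes alone and 0.01 with upper-quartile factors, which moved the median of all genes tested, -0.01, to 0.07 and 0.04. The list median for RAS and RAF input, -0.12, was -0.044 without both libraries numbered 4 and 0.0066 with the haemoglobin share. For the phosphatases, -0.27, these values were -0.15 and -0.42, and without Pu-Fu 4 it was -0.063. They were 0.072 and -0.056 for the feedback inhibitors, -0.07, and 0.023 and 0.0081 for the JNK and p38 activators, -0.03. For the downstream kinases, -0.18, they were -0.068 and -0.084. No direction is read from the list medians. The causes were not tested, and the haemoglobin share goes partly with the group.

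The groups share only the numbers 1 and 4. Deviations from group means correlated at 0.115 for number 1 and -0.281 for number 4 over 13604 genes, so the numbers were not taken as pairs. A replicate block takes the group difference from the libraries numbered 1 and 4 alone, Pi-Fu 4 and Pu-Fu 4 among them. It is therefore no estimate over all 8 libraries, and nothing is read from it. With the block 0 members had an unadjusted p under 0.05 and were lower, and the MAP3K median was -0.66. Calls over all genes were 20 with the block, against 0 without it and 63 by DESeq2. Of 33 named members, 20 kept their sign under all 18 alternatives. The low-count filter kept 41 members for the test, and 53 could be fitted without it.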
